A study of Danio rerio with 2 samples.

Results

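Genes of metal ion transport, storage and buffering were followed in gastrula-stage zebrafish embryos injected with Dcp2-DN, named for the decapping enzyme Dcp2. They were taken by symbol as the metallothionein gene mt2, the metal-response factor gene mtf1, the transporter families slc30a, slc39a, slc31a, slc11a and slc40a1, the copper pump gene atp7a, and genes of ferritin, transferrin, transferrin receptor, heme oxygenase, Steap reductase, ceruloplasmin, hemojuvelin and iron regulatory protein 2. Of 32571 rows in the table, 50 matched and 2 of these, aco1 and ftr82, were left out by the same rule, which left 48 rows with 45 distinct symbols. By symbol alone, 10 were grouped as slc30a zinc exporters, 13 as slc39a zinc importers, 4 as copper genes and 19 as iron genes, beside mt2 and mtf1. The metal that each product carries was not checked.

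Cells hold zinc, copper and iron within narrow limits. ZnT proteins, encoded by slc30a genes, move zinc out of the cytosol, into vesicles or out of the cell, and ZIP proteins, encoded by slc39a genes, bring it into the cytosol. Metallothioneins are small, cysteine-rich proteins that bind zinc and copper, and in vertebrates their genes are switched on by Mtf1 when free zinc rises. Iron is carried in blood by transferrin, taken up through its receptor, stored in ferritin and released through ferroportin, and several of these genes are known from zebrafish mutants with anemia.

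RNA came from whole embryos of strain AB at 6 hpf (hours post fertilization), pooled at 40 to 50 per extraction. One group was labelled mock and control, with no further detail of the mock given. The other was injected with Dcp2-DN, a name used in this field for a dominant-negative form of the catalytic subunit of the decapping complex. The libraries were stranded and made from total RNA after removal of ribosomal RNA. The design text names 3 replicates, but the table holds 1 FPKM value (fragments per kilobase of transcript, relative to all mapped fragments) per gene and group, so no value below carries an SD or an n, and depth is unknown.

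Called rows are those that the authors' deposited table marks as significant, that is, tested by Cuffdiff with a q-value under 0.05. How many libraries entered that test was not given in the sources used here, so the spread between replicates may not be what its p-values measure. Of the 2 rows named dcp2, ENSDARG00000039016 was at 13.9 FPKM in mock embryos and 16.7 FPKM in Dcp2-DN embryos. ENSDARG00000089419 was at 0.0398 and 212 FPKM. Neither was called in the authors' deposited table (q = 0.109 and 0.303), so a large difference in FPKM can go without a call. The 8 gastrula genes checked, such as ntla and sox32, were at 35.8 to 917 FPKM in mock embryos and 79.0 to 688 FPKM in Dcp2-DN embryos. Among these the authors' deposited table called mxtx2, a regulator of the yolk syncytial layer, higher (35.8 to 93.6 FPKM), gsc, a gene of the organizer, higher (65.0 to 79.0 FPKM) and krt4, a keratin of the enveloping layer, lower (917 to 688 FPKM). These moved in the same embryos as mt2, and their part in its rise was not tested. The 12 rows for genes of later tissues, such as hbbe2 of red blood cells and elavl3 of neurons, reached at most 0.654 FPKM in either group, and 4 of them were at 0 in both. In bulk RNA from whole embryos, fewer cells of a type and less RNA per cell cannot be told apart.

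The metallothionein gene rose, while 28 of the 31 members with a test showed no called difference. In the authors' deposited table, 3 of those 31 were called higher in Dcp2-DN embryos and 0 lower, against 20.6% of all 14810 tested rows called higher and 4.35% called lower. The 3 were mt2, slc30a4 and slc39a13. With p under 0.05 before adjustment, 4 members were higher in the authors' deposited table (27.5% of all tested rows were) and 1 was lower (8.22%), the additions being atp7a and tfa. With q under 0.01 the authors' deposited table held 2 members higher (13.5% of tested rows), and with a fold of at least 1.5 beside the call it held 1, mt2 (11.9%). Apart from mt2, tested members lay within 1.5-fold of their mock value, from 1.44-fold higher to 1.26-fold lower.

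mt2 (ENSDARG00000041623, chromosome 18, 17193794 to 17195147, on Zv9 as in the authors' files) stood at 60.6 FPKM in mock embryos and 351 FPKM in Dcp2-DN embryos. That is 5.78 times the mock level, a log2 ratio of 2.53 when 0.1 FPKM is added to both values, and a gain of 290.2 FPKM. Its p was 5e-05 and its q 0.000593 in the authors' deposited table, the lowest q in the table, shared by 1249 rows. Of all 3695 called rows, 7 had a log2 ratio as high as that of mt2 or higher, mt2 included, and among those averaging 10 FPKM or more there were 3. Called or not, 11 of the 8262 tested rows averaging 10 FPKM or more reached it, mt2 included. By gain in FPKM mt2 was among the 4 highest called rows. It was the second most abundant member in both groups, after fth1a. Its share of the summed FPKM of the 48 members went from 3.83% in mock to 19.5% in Dcp2-DN embryos. Without mt2, the members summed to 1523 FPKM in mock embryos and 1448 FPKM in Dcp2-DN embryos, a ratio of 0.951, against 0.943 for all rows of the table. Most of these 2 sums was fth1a alone, at 897 and 811 FPKM, so the ratio says little about the other members.

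No tested gene next to mt2 on the chromosome had a fold near its own. Within 200 kb on either side lay 20 other rows, of which 8 had a test and 1 was called higher in the authors' deposited table. The nearest, nup93 at 1331 bp, encodes a nucleoporin and was at 51.8 FPKM in mock embryos and 46.8 FPKM in Dcp2-DN embryos. On the other side, bbs2 at 3143 bp, a gene of cilia, was at 1.68 and 1.97 FPKM. The called neighbour was herpud1, an endoplasmic reticulum stress gene, from 40.5 to 62.6 FPKM (1.54-fold, q = 0.00311 in the authors' deposited table).

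mtf1 (ENSDARG00000090180), which encodes the zinc-sensing transcription factor that drives metallothionein genes, was at 3.65 FPKM in mock embryos and 4.05 FPKM in Dcp2-DN embryos. This 1.11-fold difference was not called in the authors' deposited table (p = 0.463, q = 0.645). Its log2 ratio of 0.14 lay near the median of all rows averaging 1 FPKM or more, which was 0.12.

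**Figure D1:**
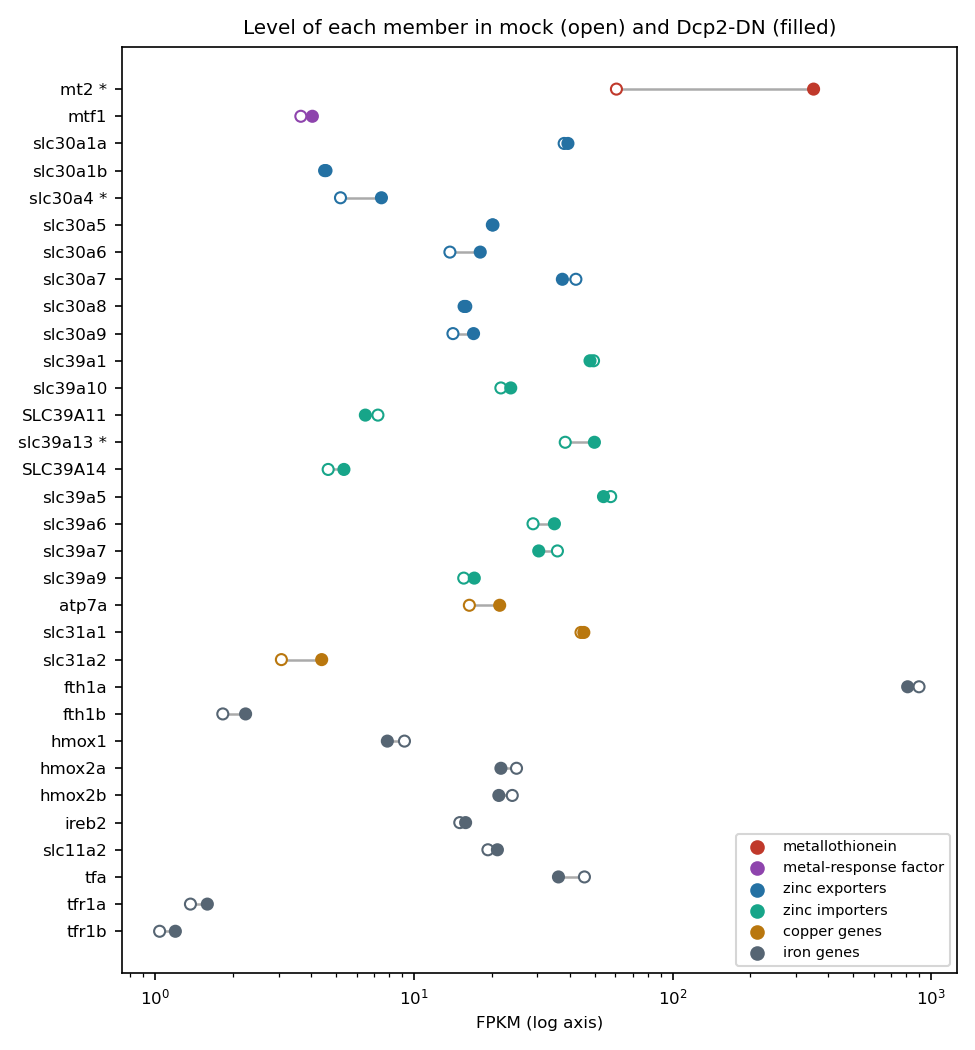
FPKM (log axis) of the 32 members averaging 1 FPKM or more in mock (open points) and Dcp2-DN embryos (filled points), coloured by role, with called genes starred. mt2 moved from 60.6 to 351 FPKM, while the pair of points lay close together for most other members, fth1a being highest at 897 and 811 FPKM.

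Among the zinc exporters, slc30a4 was the 1 gene called higher of 8 tested, against 20.6% of all tested rows. Its product loads zinc into vesicles in mammals. slc30a4 (ENSDARG00000007180, chromosome 18, 4919831 to 4929657, Zv9) rose from 5.20 to 7.49 FPKM, 1.44-fold, with q = 0.00606 in the authors' deposited table. The span of bloc1s6 lay 634 bp from that of slc30a4. bloc1s6 encodes a subunit of a complex that forms lysosome-related organelles. It rose from 4.71 to 7.72 FPKM (1.64-fold, q = 0.0192 in the authors' deposited table). Within 200 kb of slc30a4, 2 of 10 tested rows were called higher in the authors' deposited table and 0 lower, near the 20.6% of all tested rows. Around slc39a13, the called importer described next, the count was 2 of 6 and 0 lower.

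The exporters at the cell surface showed little difference. slc30a1a, one of a pair of zebrafish genes for the plasma membrane exporter ZnT1, was at 38.1 FPKM in mock embryos and 39.4 FPKM in Dcp2-DN embryos, and its locus span is shared with 1 other row. Its paralog slc30a1b was at 4.57 and 4.51 FPKM. In mammals the ZnT1 gene is, like metallothionein genes, a target of Mtf1. Neither paralog was called in the authors' deposited table (q = 0.801 and 0.959). The values hold no measure of zinc or of Mtf1 activity, and the cause of the rise of mt2 was not tested.

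Golgi and secretory pathway exporters went both ways without a call. slc30a5, slc30a6 and slc30a7 encode zinc transporters of the early secretory pathway in mammals. slc30a5 stood at 20.1 FPKM in mock embryos and 20.2 FPKM in Dcp2-DN embryos, slc30a6 at 13.8 and 18.0 FPKM, and slc30a7 at 42.3 and 37.5 FPKM. The 1.31-fold difference of slc30a6 had q = 0.318 in the authors' deposited table. slc30a8, known for zinc loading of insulin granules in mammals, was at 15.9 and 15.6 FPKM, at a stage when the insulin gene ins itself was at 0.144 and 0.151 FPKM. slc30a9, a mitochondrial zinc transporter in mammals, was at 14.1 and 16.997 FPKM. slc30a2 and slc30a10 stayed under 0.3 FPKM and had no test. Together the 8 tested exporters summed to 154 FPKM in mock embryos and 160 FPKM in Dcp2-DN embryos, with a median log2 ratio of 0.03.

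Of the 9 tested zinc importers, 1 was called higher, slc39a13, against 20.6% of all tested rows. It encodes ZIP13, a transporter of the secretory pathway needed for connective tissue in mammals. slc39a13 (ENSDARG00000000442, chromosome 7, 34028399 to 34050526, Zv9) rose from 38.4 to 49.9 FPKM, 1.297-fold, with q = 0.0107 in the authors' deposited table. slc39a6, which encodes Liv1, a ZIP protein that in zebrafish acts in the migration of gastrula organizer cells, was at 28.9 FPKM in mock embryos and 34.9 FPKM in Dcp2-DN embryos. Its 1.21-fold difference was not called in the authors' deposited table (q = 0.235). slc39a10, its close relative, was at 21.7 and 23.7 FPKM and also had no call.

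The other importers included the most abundant ones. slc39a5, the ZIP gene with the highest mean level here, was at 57.6 FPKM in mock embryos and 54.1 FPKM in Dcp2-DN embryos. slc39a1, a plasma membrane importer in mammals, was at 49.5 and 47.9 FPKM. slc39a7, which releases zinc from the endoplasmic reticulum and Golgi in mammals, was at 35.9 and 30.4 FPKM, 1.18-fold lower and the lowest ratio among tested ZIP genes. It was not called in the authors' deposited table (q = 0.225). slc39a9, a ZIP of the Golgi in mammals, was at 15.6 and 17.1 FPKM, SLC39A11 at 7.26 and 6.49 FPKM, and SLC39A14, which also carries iron and manganese in mammals, at 4.66 and 5.36 FPKM. Rows for slc39a3, slc39a4, the ZIP of intestinal zinc uptake in mammals, and both copies of SLC39A8 were under 0.6 FPKM in each group and had no test. The summed level of the 9 tested importers was 259 FPKM in mock embryos and 270 FPKM in Dcp2-DN embryos, and their median log2 ratio was 0.13.

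None of the 3 tested copper genes was called in the authors' deposited table. Of all tested rows, 20.6% were called higher and 4.35% lower, so a count over 3 rows says little. slc31a1, which encodes the high-affinity copper importer Ctr1, was at 44.3 FPKM in mock embryos and 45.4 FPKM in Dcp2-DN embryos. atp7a encodes the copper pump whose loss in zebrafish leaves embryos without pigment, and it was at 16.4 and 21.5 FPKM, 1.31-fold higher. In the authors' deposited table its p was 0.0351 and its q 0.108. slc31a2, a relative of slc31a1, was at 3.07 and 4.40 FPKM, 1.43-fold higher with q = 0.172 in the authors' deposited table. cp, for the copper-carrying ferroxidase ceruloplasmin, was at 0.192 and 0.316 FPKM, had no test and shares its locus span with another row.

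Iron genes were led by ferritin. fth1a (ENSDARG00000015551, chromosome 7, 13752096 to 13760863, Zv9), a heavy chain of the iron storage protein, was at 897 FPKM in mock embryos and 811 FPKM in Dcp2-DN embryos. It made up 56.7% of the summed FPKM of all members in mock. The 1.11-fold lower level was not called in the authors' deposited table (p = 0.123, q = 0.267). Its paralog fth1b was far less abundant, at 1.82 and 2.23 FPKM, and the row named FTL, whose identifier the name table lists as zgc:172145, was at 0.0148 and 0.0150 FPKM without a test.

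Transferrin had the lowest ratio of the tested members. tfa, which encodes this iron carrier, was at 45.6 FPKM in mock embryos and 36.2 FPKM in Dcp2-DN embryos, 1.26-fold lower. Its p was 0.0161 and its q 0.0610 in the authors' deposited table, just outside a call. Its receptor genes were low, with tfr1a, the gene of receptor-mediated iron uptake in zebrafish red cells, at 1.37 and 1.59 FPKM. The 2 rows named tfr1b were at 1.04 and 1.195 FPKM and at 0.239 and 0.291 FPKM. How reads were divided between these rows was not given in the sources used here. slc11a2, which encodes the iron importer DMT1, was at 19.3 and 21.0 FPKM. slc40a1, the iron exporter ferroportin, was at 0.886 and 0.627 FPKM and had no test.

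The heme oxygenase genes, whose products break down heme and free its iron, all had a lower value in Dcp2-DN embryos. The authors' deposited table called none of them, against 4.35% of all tested rows called lower. hmox1, the stress-inducible form, was at 9.19 FPKM in mock embryos and 7.89 FPKM in Dcp2-DN embryos (1.16-fold lower, q = 0.377 in the authors' deposited table). hmox2a was at 24.9 and 21.7 FPKM, and hmox2b at 24.0 and 21.3 FPKM. ireb2, for the RNA-binding iron regulatory protein 2 that in vertebrates controls ferritin and transferrin receptor mRNAs, was at 15.0 and 15.8 FPKM. The remaining iron rows, hfe2 for hemojuvelin, STEAP2, steap3, steap4 and both TFR2 rows, were under 0.3 FPKM in each group. steap3 was listed at 0 in Dcp2-DN embryos, as was SLC39A8 (2 of 2), and steap4 at 0 in mock.

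**Figure D2:**
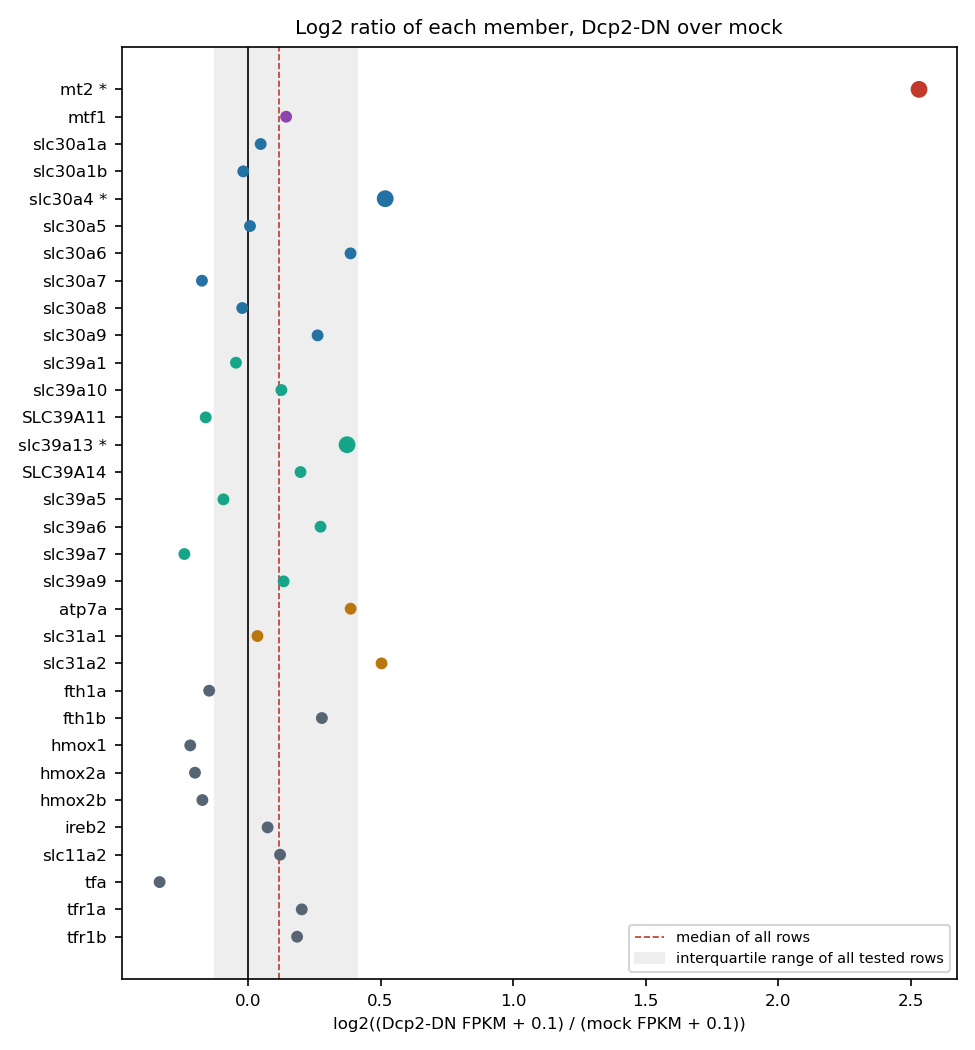
Log2 ratio of Dcp2-DN over mock (pseudocount 0.1 FPKM) for the 32 members averaging 1 FPKM or more, with called genes starred and drawn larger, the dashed line at the median of all rows (0.12) and the grey band at the interquartile range of all tested rows (-0.12 to 0.41). mt2 at 2.53 stands apart, and 20 of the 31 tested members fall inside the band.

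Across the 32 members averaging 1 FPKM or more, the median log2 ratio was 0.10, against 0.12 for all 15457 rows of that level. Without mt2 it was 0.07. By role the medians were 0.03 for zinc exporters, 0.13 for zinc importers, 0.39 for copper genes (3 rows) and -0.04 for iron genes. Of the 31 tested members, 19 had a ratio above 0 on the log2 scale and 12 below, or 61.3% above, against 62.5% of all tested rows. Inside the interquartile range of all tested rows lay 20 of them, with 3 above it (mt2, slc30a4 and slc31a2) and 8 below. The 8 below were slc30a7, SLC39A11, slc39a7, fth1a, hmox1, hmox2a, hmox2b and tfa.

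The size of a difference that the authors' test called can be read from other rows of the same level. Between 10 and 60 FPKM, 6051 rows were tested and the smallest called fold in the authors' deposited table was 1.195, in either direction. Of the 3352 of them that differed by less than 1.2-fold, 3 were called in the authors' deposited table, and 14 of the 20 members at this level were in that range. Of rows with 1.2 to 1.3-fold, 35.5% were called in the authors' deposited table, and of those with 1.3 to 1.5-fold, 77.8%. Of the 4 members with 1.2 to 1.3-fold, 1 was called, slc39a13 at 1.297-fold. The 2 members with 1.3 to 1.5-fold, slc30a6 and atp7a, were not called. Of rows with 1.5 to 2-fold, 91.0% were called in the authors' deposited table, 93.0% of the higher ones and 61.4% of the lower ones. These shares are by observed fold, and the calls rest on the same values. They do not give the chance of calling a true difference of a given size. A member at this level without a call may still differ. Members under 10 FPKM were not covered by this reading.

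**Figure D3:**
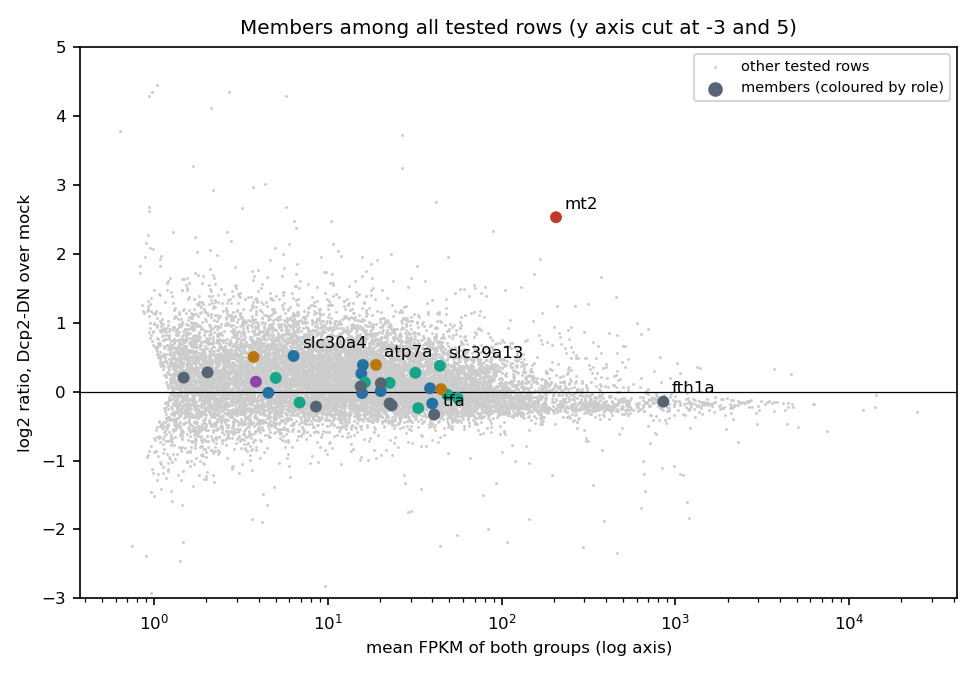
Log2 ratio of Dcp2-DN over mock against mean FPKM (log axis) for all tested rows (grey) and the 31 tested members (coloured by role), with 22 rows beyond the plotted range not shown. mt2 sits at a log2 ratio of 2.53, a height reached by 11 of the 8262 tested rows averaging 10 FPKM or more, mt2 included, and the other members lie between -0.33 and 0.52.

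Genes outside these families, grouped here under metal handling or redox defence, were looked at in 5 lists. In each list the share called higher in the authors' deposited table was above the 20.6% of all tested rows, while among the members it was 9.68%. The lists were small, with 12 to 37 tested rows each. That of other iron control genes lay closest to the share of all rows, at 26.7%. At p under 0.05 before adjustment, 27.5% of all tested rows were higher in the authors' deposited table and 8.22% lower. In the list of copper handling genes, 8 of 18 tested rows were called higher in the authors' deposited table and 0 lower. The 8 were commd3, commd4, commd5, commd8, cox17, loxl2b, pam and sod1. ATOX1, ccs, commd1, commd2, commd7, commd9, cox11, COX19, SCO1 and sco2 were tested and had no call. Of these, commd1 was 1.87-fold lower in Dcp2-DN embryos (p = 0.0223, q = 0.0781 in the authors' deposited table). commd7 was at 16.2 FPKM in both groups. commd2 and commd9 were 1.18-fold and 1.45-fold higher (q = 0.226 and 0.595 in the authors' deposited table). pam, a copper-dependent enzyme of peptide amidation, rose from 6.05 to 14.1 FPKM (2.32-fold) and commd5 from 3.31 to 7.74 FPKM (2.33-fold). cox17, which acts in the copper supply of cytochrome oxidase, rose from 39.0 to 84.1 FPKM (2.16-fold). With p under 0.05 before adjustment the list had 10 higher and 1 lower. Its median log2 ratio was 0.53.

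Heme and iron-sulfur cluster genes had 14 of 37 tested rows called higher in the authors' deposited table and 1 lower (18 and 1 with p under 0.05 before adjustment). nubp2, which acts in cytosolic cluster assembly, rose from 3.29 to 6.26 FPKM (1.91-fold). ISCA2 and HSCB, both of mitochondrial cluster assembly, rose from 3.12 to 5.95 FPKM (1.91-fold) and from 4.61 to 8.33 FPKM (1.81-fold). abcb10, a mitochondrial transporter linked to heme synthesis, fell from 19.8 to 15.9 FPKM, 1.25-fold lower (q = 0.0371 in the authors' deposited table). The list's median log2 ratio was 0.35.

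Other genes of iron control had 4 of 15 tested rows called higher in the authors' deposited table and 0 lower, also with p under 0.05 before adjustment, where 5 were higher. slc48a1b, which carries heme out of lysosomes, rose from 27.7 to 45.9 FPKM (1.66-fold), flvcr2b from 2.83 to 4.63 FPKM (1.63-fold) and mon1a from 6.17 to 9.01 FPKM (1.46-fold). The median log2 ratio of this list was 0.28. Of genes for magnesium and other divalent metals, 6 of 12 were called higher in the authors' deposited table and 0 lower (8 and 0 with p under 0.05 before adjustment). cnnm2a, linked to magnesium transport, rose from 8.50 to 13.4 FPKM (1.58-fold), nipa1 from 6.97 to 11.0 FPKM (1.58-fold) and MRS2, a mitochondrial magnesium channel, from 8.93 to 12.5 FPKM (1.4-fold), and the median log2 ratio was 0.35.

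Glutathione and oxidative stress genes had 10 of 29 tested rows called higher in the authors' deposited table and 0 lower (11 and 0 with p under 0.05 before adjustment). gstp1, a glutathione transferase, rose from 99.9 to 203 FPKM (2.03-fold), prdx3, a mitochondrial peroxiredoxin, from 6.27 to 12.1 FPKM (1.93-fold) and gsto2 from 30.1 to 52.0 FPKM (1.73-fold). Their median log2 ratio was 0.22, the lowest of the 5 lists and nearest to the 0.12 of all rows. The highest fold named from these lists was the 2.33 of commd5, against 5.78 for mt2. The difference in share between the members and any of the 5 lists was not tested.

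**Figure D4:**
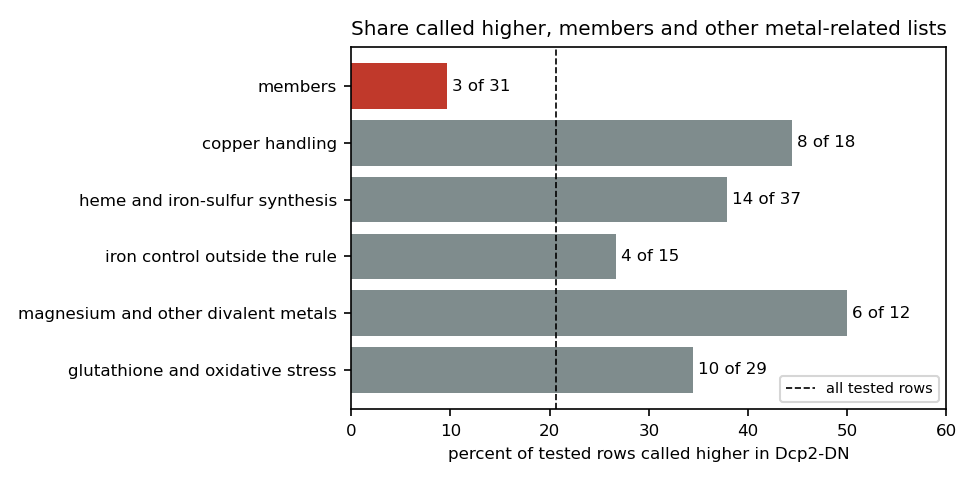
Percent of tested rows called higher in Dcp2-DN embryos in the authors' deposited table, for the members and the 5 other lists. The dashed line is the share of all tested rows (20.6%). The members had 3 of 31, and the lists ranged from 4 of 15 to 6 of 12.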

How the data were processed

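Per the submitters' processing notes, TopHat 1.4.0 and Cuffdiff 2.1.1 were used with Zv9 (danRer7). Annotation, scaling, number of libraries per group and strand setting are not given in the sources used here. The deposited columns, per the file headers, are an FPKM value for each gene in each group and a Cuffdiff p-value, q-value, test status and call. The call equalled a tested status with q under 0.05 in all 32571 rows.

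Group names within the rows (mockB, DCP2) were matched to the sample titles. Members were taken by symbol, ignoring case and copy numbers. Of the 48 members, 31 had a test and 17 did not. The lowest mean of a tested member was 1.48 FPKM. Identifiers matched the name table for 35 of 48 members, with the same symbol (ignoring case and copy numbers) for 29. The identifier of mt2 is listed there as MT1X. Log2 ratios used a pseudocount of 0.1 FPKM, which understates changes of low genes, and folds are ratios of the FPKM values. Medians used rows averaging 1 FPKM or more. Named were mt2, mtf1, called members, members averaging 10 FPKM or more, and up to 3 called genes in each direction per list. Other members, slc31a2, the further copper handling genes and the neighbouring genes were named after their values were seen. The members, lists and rules were chosen with earlier results of these data known. The planned promoter motif search was not run, as no promoter sequences were used here. The calculations of log2 ratios, medians and counts were tested on simulated shifts. That test used a fixed cutoff on the log2 ratio, not Cuffdiff calls, and almost no pseudocount. Python 3.11.15, NumPy 2.4.6, pandas 2.3.3 and matplotlib 3.10.9 were used.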

Additional observations from a re-analysis of the deposited data

How the results depend on the processing

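No paired analysis was possible because the table holds 1 value per gene and group, and no replicate could be left out. Of the 3 members called higher, 1 (mt2) remained with a fold minimum of 1.5 (11.9% of all tested rows), and 2 (mt2 and slc30a4) with q under 0.01 (13.5%). Members called lower went from 0 (4.35% of all tested rows) to 1 at an unadjusted p under 0.05 (8.22%). The scaling mattered most for the medians, since the median of all rows averaging 1 FPKM or more was 0.12. Centred on it, the members' median log2 ratio was -0.019, and those of zinc exporters, zinc importers, copper genes and iron genes were -0.089, 0.0091, 0.27 and -0.15. Centred on ribosomal protein genes, the members' median was 0.32. The iron genes' median was 0.074 with no filter on low values, which adds untested rows. The other settings moved no median by more than 0.1, a tolerance set here because the table has no replicate spread. Centring changed the sign of 4 named members without a call, and mt2 kept a log2 ratio of 2.41. Leaving out mt2 (chosen after seeing the data) left 2 of 30 tested members called higher, or 6.67%, against 20.6% of all tested rows. Depth is unknown, so members under 1 FPKM are given only as values or as upper limits, and their ratios are not read.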
